A study of Homo sapiens with 12 samples.

Results

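CXCL12, the chemokine also known as stromal cell-derived factor 1, was 1 of the 199 genes counted on an nCounter stem cell panel in LX-2 cells, and its row was followed through all 12 samples. The gene was chosen by its measured values: its high level on the panel, its fall between 24 h and 48 h, the gap of about an order of magnitude between replicate A and replicates B and C at 48 h, and its miR-25 to control ratios. These values are therefore given as a description of the samples, with no test.

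LX-2 is an established human line of activated hepatic stellate cells (HSCs), the collagen-producing cells of the injured liver. In each of the 4 groups (control at 24 h, miR-25 at 24 h, control at 48 h and miR-25 at 48 h) there were 3 samples, lettered A to C. Cells received either a mimic of miR-25 or a non-specific control mimic taken from a Caenorhabditis elegans sequence, both at 10 pmol/ml. Exposure to a mimic and to a transfection reagent was thus common to all samples. For the reagent the paper gives Effectene or Lipofectamine LTX. The control and the miR-25 sample of 1 letter and time point share a transfection efficiency in the labels and form a transfection pair, which gives 6 pairs. The pairs at 24 h and 48 h carry different efficiencies even where they share a letter, and were treated as different transfections. The labels do not say whether a letter links the time points, and the test between times took no account of letters. All pairs come from 1 cell line. The p-values given for other genes thus speak only for this line. For miR-25 they set the difference within pairs against its variation over the pairs. Between times they set the difference against the variation between pairs.

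CXCL12 is a small secreted protein that binds the receptor CXCR4, through which it directs the migration of leukocytes and progenitor cells, and the atypical receptor ACKR3, which takes it up from the surroundings. It is made by stromal cells of bone marrow and many organs. In the liver, HSCs and other mesenchymal cells are known to produce it, and CXCR4 signalling has been linked to HSC activation. Neither receptor gene was on the panel, so only the messenger RNA of the ligand and some of the kinases and small GTPases that chemokine receptors use could be read.

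The RefSeq annotation of GRCh38.p14 places CXCL12 on the minus strand at chr10:44370165-44385097, a span of 14933 bases with 5 annotated transcripts, and the panel names it by the transcript NM_199168.2. The first 30 bases of the 100-base stretch of that messenger RNA which its probe pair binds are shown because every CXCL12 value rests on this stretch, and the mature miR-25-3p is shown because its mimic is the treatment. Capitals in the miRNA mark the seed (bases 2 to 8).
CXCL12 probe target, first 30 bases: gggcctgaggtttgccagcatttagaccct
miR-25-3p: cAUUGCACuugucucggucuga
The miRNA sequence was taken from RefSeq, where its 22 bases lie at chr7:100093571-100093592 on the minus strand of GRCh38.p14. The seed complement GTGCAAT was found on the sense strand of 0 of 193 target stretches on the panel, and its 6-base part TGCAAT, which is contained in it, in 3 of 193 (1.55%). Neither was in the CXCL12 stretch, which says nothing about the rest of the transcript. Whether the stretch lies in the coding part or a UTR was not determined here.

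Before the levels of CXCL12 are given, both samples of replicate A at 48 h have to be set apart, since they differed from the other samples in many genes. The cause of this, a mix-up of samples included, was not tested, and the values carry the labels as given. In a comparison of counts between replicates of 1 group, the chi-square per degree of freedom was 2.52 to 3.996 for B against C, 13.2 to 16.8 for A against B or C at 24 h, and 51.4 to 73.1 for A against B or C at 48 h. Both samples of 48 h replicate A lay below the other 10 samples in 36 of the 136 genes that averaged 20 counts or more (26.5%) and above them in 25 (18.4%). This transfection had the lowest efficiency of the 6, at 0.42 against 0.59 to 0.81 in the others. Its control sample had the smallest panel total of the series, 107377 counts, and no total exceeded 200821 at 48 h, whereas the 24 h totals were 321243 to 409581. Counts were therefore divided by the panel total of their sample and are given as counts per 100000 panel counts. Time point, depth and transfection cannot be told apart in this design. In bulk RNA, fewer cells that make a transcript and less transcript per cell cannot be told apart either.

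At 24 h CXCL12 was at nearly the same level in every sample. In the control samples the level per 100000 was 3131 in A, 3276 in B and 3594 in C, from 12663, 11225 and 11546 counts. In the miR-25 samples it was 3098 in A, 3100 in B and 3149 in C, from 12687, 12067 and 11571 counts. The group levels were 3334 ± 237 for control and 3115 ± 28.8 for miR-25 (mean ± SD, n = 3), and the ranges of the groups overlapped, because control A lay below miR-25 C.

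At 48 h replicates B and C held this level and replicate A did not. The control level per 100000 was 335 in A, 3263 in B and 3221 in C, from 360, 4592 and 5903 counts. The miR-25 level was 208 in A, 2996 in B and 2976 in C, from 323, 4764 and 5977 counts. With A included, the group levels were 2273 ± 1678 for control and 2060 ± 1604 for miR-25 (n = 3), so that the SD came close to the mean. The 4 samples of B and C were at 3114 ± 149 (n = 4).

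**Figure D1:**
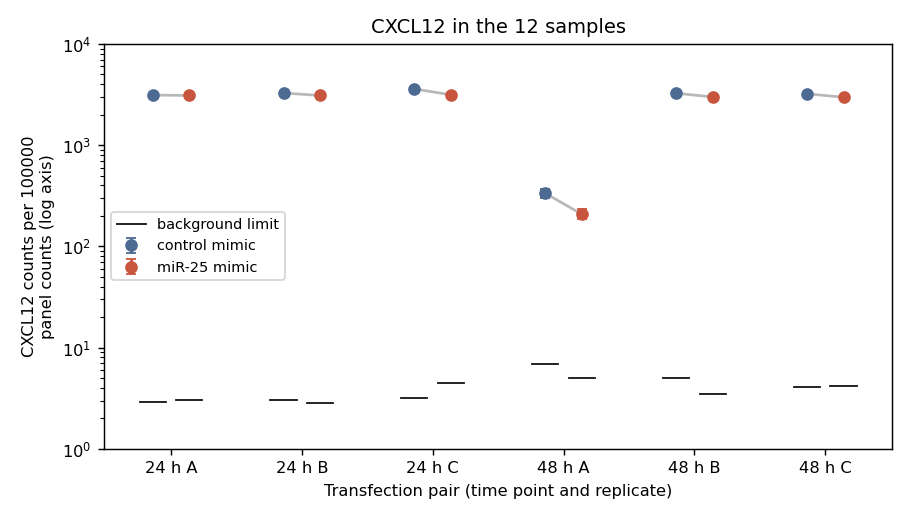
Each point is CXCL12 in 1 sample as counts per 100000 panel counts on a log axis, with its 95% exact counting interval, by transfection pair, and black bars give the background limit of the sample. The 10 samples outside 48 h replicate A sit between 2976 and 3594, and both samples of that replicate sit at 335 and 208, still far above the limit.

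The low values were well measured. The exact 95% interval, which covers counting error only, was 302 to 372 per 100000 for the control sample and 186 to 232 for the miR-25 sample of 48 h replicate A. The background limit (2 SD over the mean count of the 8 negative control probes) was exceeded 48.9-fold and 41.1-fold in these samples and by 652-fold to 1137-fold in the others.

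Among the panel genes CXCL12 ranked high wherever the level was kept. Its mean count of 7807 was the fourth highest of 199, after GAPDH, the tubulin gene TUBB and the glycolytic gene PGK1, and ahead of CTNNB1 (mean count 7471), which encodes beta-catenin, and the small GTPase gene RAC1 (6038). In the 10 samples outside 48 h replicate A its rank was 4 in each. In that replicate it was 49 in the control and 61 in the miR-25 sample. An nCounter count depends on the probe pair as well as on the transcript and has no scale per length, so the rank is one of counts, not of molecules per cell.

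Apart from 48 h replicate A, CXCL12 varied little. Over those 10 samples its level was 3180 ± 177 (n = 10), a coefficient of variation of 5.56%, and the highest sample exceeded the lowest 1.21-fold. The SD of its log2 level over these samples was 0.08, the 14th lowest of 136 genes, whose median SD was 0.20. Over the 6 samples of 24 h alone the SD was also 0.08, the 49th lowest, beside a median of 0.11. Over all 12 samples the SD was 1.40, the second highest of the 136, and the highest sample exceeded the lowest 17.3-fold.

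The gap between replicates at 48 h was seen in both arms. The control sample of A was 9.67-fold below the control samples of B and C, and the miR-25 sample 14.4-fold below the miR-25 samples of B and C. Averaged over the arms on the log2 scale, with 1 count added to each value, the difference was -3.55, or 11.8-fold lower. Under other scalings the fold ran from 9.65 with 5 reference genes to 16.3 with the positive control probes, whose counts come from RNA added in known amounts.

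CXCL12 had the lowest value of 136 genes in this difference, whose median was -0.14. The next was CD4, a T-lymphocyte surface receptor gene near background, at -1.61, followed by GUSB (-1.61), a reference gene for a lysosomal enzyme, the Notch coactivator gene MAML3 (-1.60) and the stress kinase gene MAPK9 (-1.43). In all, 14 genes were more than 2-fold lower in A, CXCL12 among them, and 3 more than 2-fold higher.

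The 3 higher genes were ZIC2, a zinc finger transcription factor gene of neural development, TCF7, a transcription factor of the Wnt pathway, and DTX4, a Notch pathway ubiquitin ligase gene. ZIC2 was at 71.7 per 100000 in the control sample of A, at 65.7 in its miR-25 sample and at 2.52 to 15.8 in the other 10 samples, a log2 difference of 4.01 from B and C. TCF7 was at 31.7 and 25.8 against 4.38 to 14.2, and DTX4 at 11.2 and 18.0 against 5.48 to 9.25. For each of these genes both samples of A lay above every other sample. In B and C, however, ZIC2 had only 4 to 9 counts, beside background limits of 5.52 to 8.40. Its log2 difference of 4.01 thus rests on values near background. TCF7 and DTX4 were also low, with mean counts of 23 and 22.3 over all samples. Their differences thus rest on few counts as well. For DTX4 the control sample of A, at 11.2 per 100000, stood little above the highest other sample, at 9.25. At 24 h ZIC2 was at 11.2 to 15.8 per 100000.

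**Figure D2:**
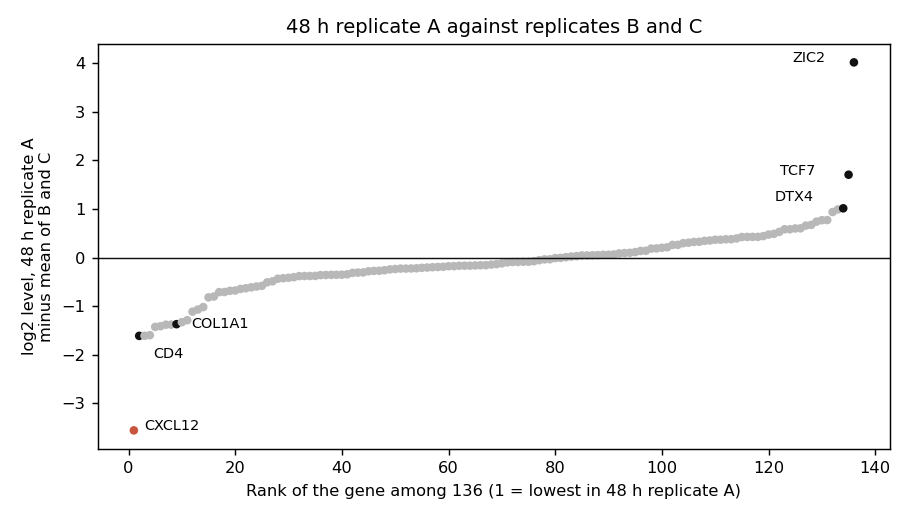
Each point is 1 of 136 genes, ordered by the log2 level in 48 h replicate A minus the mean of replicates B and C, averaged over both arms. CXCL12 stands lowest at -3.55, apart from CD4 at -1.61, and ZIC2, whose counts in B and C were near background, highest at 4.01.

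The cell type labelled for the samples was checked against the few markers on the panel. COL1A1, the collagen gene that activated HSCs express, and CDH2, the N-cadherin gene of mesenchymal cells, were above background in all 12 samples. COL1A1 was at 740 and 540 per 100000 in 48 h replicate A, below the 1031 to 1134 of the 24 h samples and the 1448 to 1857 of B and C. CDH2 was at 1606 and 1421 in that replicate, below the 1727 to 1818 of the 24 h samples and above the 1056 to 1216 of B and C at 48 h. CXCL12 and COL1A1 were thus both low there, by 11.8-fold and 2.58-fold against B and C, while CDH2 was 1.34-fold higher. COL1A1 and CDH2 were the 2 tested of 4 stellate or mesenchymal genes, as NCAM1 and PPARG averaged under 20 counts. For miR-25 or for time, edgeR called 0 of the 2. Without 48 h replicate A both were called between times, COL1A1 as higher and CDH2 as lower at 48 h, with log2 fold changes of 0.62 and -0.66 (edgeR adjusted p = 0.00024 and 7.13e-05). NCAM1 was also tested in that fit and was not called, with a log2 fold change of -1.21 (edgeR adjusted p = 0.0576). These 2 of 3 stand beside 70 of 140 genes called in the same fit.

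Markers of other cell types stayed low throughout. The summed level of the 4 T-lymphocyte markers was 12.1 and 13.5 per 100000 in the 2 samples of 48 h replicate A, 10.3 to 18.5 at 24 h and 20.1 to 29.1 in B and C, and CD3D and CD8B were above background in no sample. The 4 epithelial markers summed to 13.0 and 12.9 in A, 7.17 to 11.96 at 24 h and 8.80 to 16.3 in B and C, with FOXA2 above background in none. For the 3 pluripotency markers the sums were 13.0 and 16.1, 9.77 to 21.8 and 11.5 to 14.5, in the same order, and SOX2 was above background in none. The neural pair summed to 2.49 to 10.2 and the muscle pair to 1.71 to 9.95 over all samples, with S100B above background in none. Of these 5 sums, only that of the T-lymphocyte markers lay lower in A than in B and C in both samples.

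The fall of CXCL12 from 24 h to 48 h rested on replicate A. Over all 6 pairs the log2 difference was -1.23, or 2.35-fold lower at 48 h, the second lowest of 136 genes after WNT5B, which encodes a secreted Wnt ligand. With B and C as the only 48 h pairs it was -0.05, or 1.03-fold lower, the 49th lowest. The range of B and C, 2976 to 3263 per 100000, overlapped that of the 24 h samples, 3098 to 3594. The level in B and C as a ratio to 24 h was 0.966 by panel total, 0.916 by TMM, 0.895 by the 5 reference genes and 0.679 by the positive control probes.

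In edgeR's quasi-likelihood test on pair sums, 3 of 136 genes rose from 24 h to 48 h (2.21%) and 4 fell (2.94%) at an adjusted p under 0.05. Those that fell included the growth factor gene FGF1 and WNT5B, and those that rose NOTCH3, FURIN and SMO. Without 48 h replicate A, 45 of 140 genes rose (32.1%) and 25 fell (17.9%), so 70 genes were called in place of 7. No reading of CXCL12 follows from these shares, as the gene was chosen by this contrast.

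Within each transfection pair CXCL12 was lower in the miR-25 sample than in its control. At 24 h the ratio of miR-25 to control was 0.989 in A (exact 95% counting interval 0.965 to 1.01), 0.946 in B (0.922 to 0.971) and 0.876 in C (0.854 to 0.899). At 48 h it was 0.620 in A (0.532 to 0.723), 0.918 in B (0.882 to 0.956) and 0.924 in C (0.891 to 0.958). The intervals leave out the variation between transfections. The lowest ratio belonged to the replicate in which the gene itself was low.

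**Figure D3:**
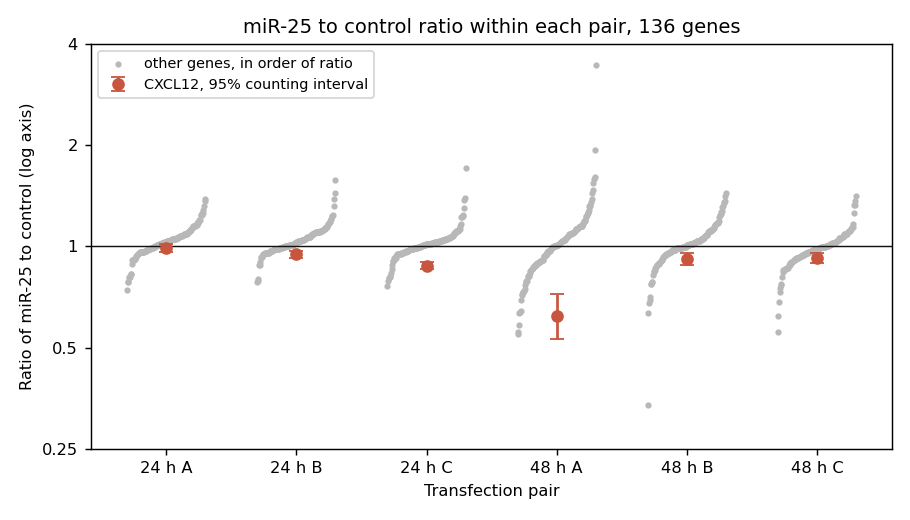
Red points give the miR-25 to control ratio of CXCL12 in each transfection pair on a log axis, with the 95% exact counting interval, and grey points the other 135 genes of each pair in order of their ratio. All 6 red points lie below 1, from 0.989 in 24 h A to 0.620 in 48 h A, within the range of the other genes.

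The mean log2 ratio was -0.10 ± 0.09 at 24 h and -0.31 ± 0.33 at 48 h (SD, n = 3 pairs), which correspond to ratios of 0.936 and 0.807. Over the 5 pairs without 48 h A it was -0.10 ± 0.06, a ratio of 0.930. Averaged over all 6 pairs CXCL12 was the fifth lowest of 136 genes, with a ratio of 0.869. The 24 h and 48 h means differed by less than the SD at 48 h.

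A ratio below 1 in 6 of 6 pairs was seen in 2 of 136 genes (1.47%), CXCL12 and PGK1, and a ratio above 1 in all 6 in 7 genes. As CXCL12 was chosen by these ratios, its place among them is a description and no test. Lower in all 6 pairs were 5 genes by TMM, 4 without GAPDH in the total, 3 by the reference genes and 3 after background subtraction, CXCL12 each time and PGK1 only in the last. In the 3 pairs at 24 h 8 genes were below 1 throughout (5.88%) and 35 above it, and in the 3 pairs at 48 h 25 genes (18.4%). The PGK1 ratios were closer to 1, at 0.969 to 0.990 in 5 pairs and 0.877 in 48 h A. With the positive control probes as the scale, no gene was lower in all 6 pairs and CXCL12 gave 0.950, 1.08 and 0.976 for A, B and C at 24 h, then 0.852, 1.20 and 0.990 for those of 48 h. CXCL12 lay below 1 in 6 of 6 pairs under the other 5 scalings tried, and in 4 of 6 under this one. The direction against control thus depends on whether panel RNA or added RNA is held equal.

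The pairs differed in their labels for transfection. In the paper, efficiency was read in a parallel well of each plate that received a fluorescein-labelled control miRNA, not in these samples. The labelled transfection efficiency was 0.59, 0.75 and 0.81 at 24 h and 0.42, 0.61 and 0.65 at 48 h in A, B and C. The relative miR-25 expression of the miR-25 samples against their controls was 62.3, 193 and 350 at 24 h and 347, 482 and 681 at 48 h. At 24 h the CXCL12 ratio was lowest in C, the pair with the highest efficiency, and at 48 h in A, the pair with the lowest.

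Few differences between miR-25 and control passed the test in the panel as a whole. The edgeR fit with the pair as a block called 0 of 136 genes higher (0%) and 0 lower (0%) at 24 h, while 9 genes had an unadjusted p under 0.05 and DESeq2 called 0. At 48 h 1 gene was higher (0.735%) and 0 lower (0%), while 17 had an unadjusted p under 0.05 and DESeq2 called 1. Over both time points 0 genes were higher (0%) and 0 lower (0%), while 21 had an unadjusted p under 0.05 and DESeq2 again called 0. The gene called at 48 h was FGF1, with ratios of 1.59, 1.23 and 1.17 in A, B and C and an edgeR adjusted p of 0.0204. It was not called without 24 h replicate C or with no replicate block.

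Of the 10 genes listed for chemokine signalling, the small GTPases, kinase A and kinase C subunits and the kinase GSK3B that act below chemokine receptors, 9 passed the filter, and PRKACG was above background in no sample. For miR-25 against control edgeR called 0 of the 9 at 24 h, at 48 h and over both, with a median log2 fold change of 0.01 at 24 h beside 0.03 for all genes and -0.03 at 48 h beside -0.01. From 24 h to 48 h 0 of the 9 were called, and 2 had an unadjusted p under 0.05, beside 49 of all 136 genes. Without 48 h replicate A, PRKACB, PRKCD and RHOA rose, by log2 0.27, 0.52 and 0.19, and RAC1 and CDC42 fell by 0.19 and 0.17 (edgeR adjusted p 0.00611 to 0.0363). These 5 of 9 stand beside the 70 of 140 genes called in the same fit.

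In 48 h replicate A itself the chemokine signalling genes moved far less than CXCL12. CDC42, a small GTPase of cell polarity, was at 826 and 776 per 100000 against 1058 to 1269 in the other 10 samples, and GSK3B at 384 and 400 against 431 to 535. PRKACA, the catalytic subunit of protein kinase A, was at 2536 and 2373 against 1771 to 1969. The other 6 tested genes of the list overlapped the other samples. Thus 2 of 9 lay below the other 10 samples and 1 above, beside 36 and 25 of 136 genes in all. The median of the 9 against B and C was -0.09 beside -0.14 for all genes.

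The other secreted ligands of the panel were mostly at or near background in LX-2 cells. Of 29 listed Wnt, hedgehog, bone morphogenetic and growth factor genes, 5 passed the filter and 14 were above background in no sample, the 3 hedgehog ligand genes among these. FGF2 (1931 and 1698 in 48 h replicate A against 970 to 1257 in the other 10 samples) was the most counted of them. WNT5B lay below the other samples in that replicate, at 74.5 and 87.6 against 113 to 363. Of the 5 tested ligands, 1 lay below and 1 above the other 10 samples, beside 36 and 25 of 136 genes in all. Over all 6 pairs both WNT5B and FGF1 fell from 24 h to 48 h, with log2 fold changes of -1.502 and -0.70 (edgeR adjusted p = 0.0239 and 0.0333). These 2 of 5 stand beside 7 of 136 genes called in all. Both also fell without 48 h replicate A, with log2 fold changes of -1.28 and -0.79, while WNT3 and WNT5A rose by 0.61 and 0.59. These 4 of 6 tested stand beside 70 of 140 genes called in the same fit. Neither WNT5B nor FGF1 was called when any single 24 h pair was left out.

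Of the 8 genes of adhesion and migration 6 were tested. In the filtered fit of all samples edgeR called none of these for miR-25 at either time point or between time points. At 24 h, at 48 h and between times, 0, 3 and 4 of them had an unadjusted p under 0.05, beside 9, 17 and 49 of all 136 genes. At 48 h their log2 fold changes against control ran from -0.39 to -0.02. Without 48 h replicate A, ADAM17 rose and CD44, CDH2 and MME fell between times, 4 of 7 tested beside 70 of 140 genes in all. The median of the list in 48 h replicate A against B and C was 0.41. CTNNA1, encoding alpha-catenin, was the 1 gene of 6 that lay below the other 10 samples, beside 36 of 136 in all. PLAU, the urokinase gene, was at 0.555, 0.848 and 0.948 of its control at 48 h in A, B and C, and at 24 h the same ratios were 1.04, 0.983 and 1.11 (edgeR adjusted p = 0.120 at 48 h). It was called lower at 48 h in the fit of 48 h alone, with no filter, and without 48 h replicate C.

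Cyclins and other growth genes, all 7 of which were tested, had 0 calls for miR-25 and for time in edgeR on all samples by panel total. At 24 h, at 48 h and between times, 2, 0 and 4 of them had an unadjusted p under 0.05, beside 9, 17 and 49 of all 136 genes. CCND1 was called higher with miR-25 at 24 h in the fit of 24 h alone and without 48 h replicate A. Over both time points it was also called without that replicate. Without 48 h replicate A, CCND3 rose and CCNA2, CCND1 and MYC fell from 24 h to 48 h in edgeR, 4 of 7 beside 70 of 140 genes in all. In 48 h replicate A the cyclin genes CCNA2 (1301 and 1421 against 1849 to 2423) and CCND2 (19.6 and 21.2 against 23.0 to 42.3) lay below the other 10 samples and CCNE1 (119 and 120 against 83.2 to 111) above them. These 2 below and 1 above of 7 genes stand beside 36 and 25 of 136 in all. CCND1 was at 1688 and 1844 in A and at 856 to 924 in B and C at 48 h, beside 1809 to 2638 in the 24 h samples.

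The 5 reference genes were split in that replicate. GUSB (133 and 135 against 222 to 436) and TUBB (6092 and 6492 against 7079 to 8174) were below the other 10 samples, and GAPDH (32665 and 33368 against 26910 to 30575) and HPRT1 (1557 and 1786 against 1216 to 1519) above them. These 2 below and 2 above of 5 genes stand beside 36 and 25 of 136 in all. The median of the 5 against B and C was 0.02. A scale built from these genes thus moved CXCL12 in A from 335 and 208 to 392 and 231 per 100000.

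**Figure D4:**
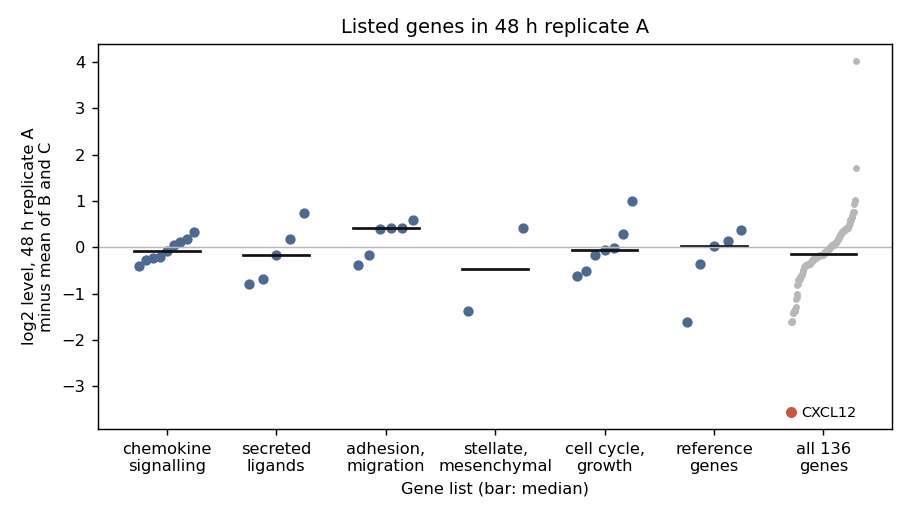
Points give the log2 level of each tested gene in 48 h replicate A minus the mean of B and C for 6 gene lists and for all 136 genes, and bars the medians. The list medians run from -0.47 for the 2 stellate or mesenchymal genes to 0.41 for adhesion and migration, and no listed gene comes near CXCL12 at -3.55.

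The genes whose log2 level was most like that of CXCL12 over the 12 samples were MAML1, a Notch coactivator gene (Pearson r = 0.97), MAPK9 (0.97), SMAD4, the shared mediator of TGF-beta signalling (0.97), the kinase gene PRKX (0.96) and CDC42 (0.92). The least like were the kinase gene PRKD1 (-0.93), PRKACA (-0.92) and PSENEN, a subunit of gamma-secretase (-0.92). These values describe 12 points that share their panel totals and in which both samples of 48 h replicate A lie far from the rest.

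Without those samples the values moved toward 0 for each of the 8 genes, and for MAML1 the sign changed. Over the other 10 samples r was -0.19 for MAML1, 0.11 for MAPK9, 0.61 for SMAD4, 0.59 for PRKX and 0.33 for CDC42, and -0.54, -0.35 and -0.62 for PRKD1, PRKACA and PSENEN. In 48 h replicate A MAML1 was at 60.5 and 61.8 per 100000 against 140 to 173 in the other 10 samples, MAPK9 at 183 and 203 against 427 to 536, and SMAD4 at 389 and 355 against 457 to 505. The genes most like CXCL12 over the 10 samples, a choice made after the values were seen, were AXIN1 (0.73), PRKCI (0.70) and GSK3B (0.62), over a range of CXCL12 of only 1.21-fold.

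**Figure D5:**
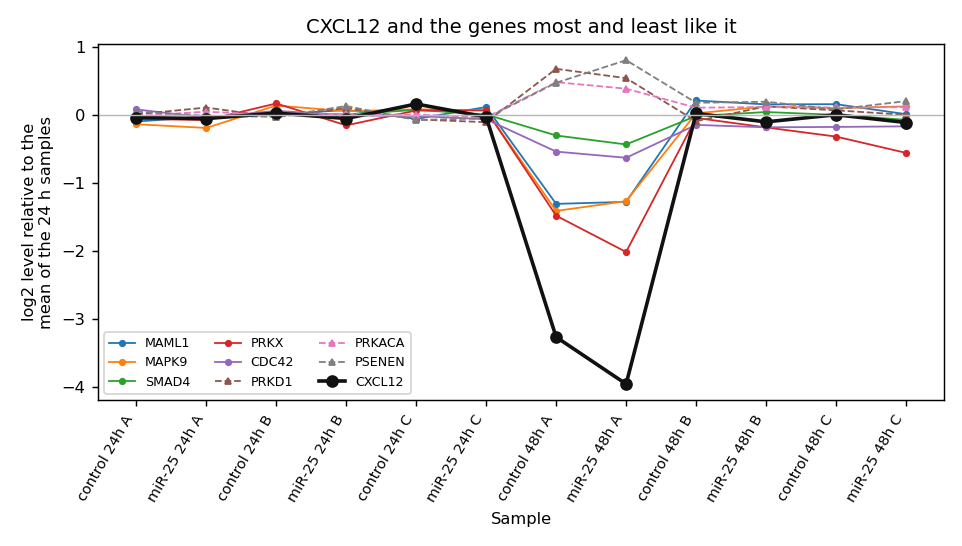
Lines give the log2 level of CXCL12, the 5 genes most like it and the 3 least like it in each of the 12 samples, relative to the mean of the 6 samples at 24 h. CXCL12 drops by more than 3 log2 units in both samples of 48 h replicate A, and the like genes drop there by less.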

How the data were processed

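RNA (50 ng) of 12 LX-2 samples was hybridised to an nCounter panel of 199 genes with 6 positive and 8 negative control probes. The authors deposited raw counts, without background correction or scaling. Names came from the panel sheet for 193 genes and from a RefSeq table (GRCh38.p14) for 6.

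Samples were grouped by their labels. Same-lettered samples of a time point share a transfection efficiency, and their deviations from the group means correlated at 0.286 to 0.564 at 24 h. At 48 h the values were 0.791 to 0.894. Replicate A enters those group means, so they partly restate its distance from B and C in both arms. Counts were divided by the panel total. The 136 genes averaging 20 counts or more were tested with edgeR 4.0.16 (R 4.3.3, quasi-likelihood, pair as a block, pair sums between times, Benjamini-Hochberg, threshold 0.05), and the code was tested on simulated data. DESeq2 1.42.0, limma 3.58.1, other scalings and filters, and each pair left out were alternatives. Descriptions used python 3.11.15, pandas 2.3.3 and scipy 1.17.1. Besides CXCL12, genes were named by likeness (5 most, 3 least), by difference of 48 h replicate A (5 lowest, 3 highest), by neighbouring mean count, and from fixed lists. CXCL12, the lists and the tests were chosen with earlier results of these data known.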

Additional observations from a re-analysis of the deposited data

How the results depend on the processing

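The difference of CXCL12 between 48 h replicate A and B and C was -3.56 on the log2 scale by panel total with no count added, -3.45 by TMM, -3.27 by the 5 reference genes, -4.03 by the positive control probes, -3.50 without GAPDH in the total and -3.57 after subtraction of the negative control mean. By the positive control probes the mean miR-25 to control ratio of CXCL12 was 1.0014 at 24 h and 1.0043 at 48 h, against 0.936 and 0.807 by panel total, and it kept its direction under the other alternatives. Its fall from 24 h to 48 h kept its direction under all alternatives run, but was -0.05 in place of -1.24 on the log2 scale without 48 h replicate A.

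For the genes called, tests on 1 time point alone gave 3 at 24 h and 3 at 48 h, against 0 and 1 in the fit of all samples, and no filter on low counts gave 3 at 48 h. The paired design mattered at 48 h, where the fit with no replicate block called 0 genes (2 at an unadjusted p under 0.05). Leaving out the block changed no other call for miR-25 against control, as 0 genes were called there with it. At an unadjusted p under 0.05 it left 0 genes in place of 9 at 24 h and 0 in place of 21 over both time points. Between time points 7 genes were called, against 17 with TMM, 40 with DESeq2 and 14 by limma on single samples with the pair as a random replicate block. When single pairs were left out, the calls ranged from 0 to 3 at 24 h, 0 to 2 at 48 h, 0 to 4 over both time points and 1 to 70 between time points. Without 48 h replicate A the calls were 3 at 24 h, 4 over both time points and 70 between time points. The 2 at 48 h came without 48 h replicate C. The 0 at 48 h came without 24 h replicate C. Between time points, FURIN alone was called without 24 h replicate A, B or C or 48 h replicate B, and 3 genes without 48 h replicate C. CXCL12 was among the calls in the fits of 1 time point alone and, at 24 h and over both time points, without 48 h replicate A, which is no test of it, as it was chosen by these contrasts. Totals at 48 h were lower, so counting error was larger there.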
